A study of Arabidopsis thaliana with 12 samples.

Results

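The 26S proteasome subunits are described here through 48 Arabidopsis thaliana genes, chosen by locus from the annotated 20S alpha, 20S beta, RPT and RPN families, of 33330 features in the deposited count table. They comprise 12 alpha and 11 beta genes of the 20S core, 11 RPT ATPase genes and 14 RPN genes of the regulatory particle. All 48 passed the filter on low counts and were tested, among 20232 genes. The study sequenced RNA of whole seedlings, 6 days old, from plants with the label hd2b hd2c and from wild type (WT). HD2B and HD2C are histone deacetylases of a family found in plants. The study's title concerns these proteins and Argonaute 4 in heat tolerance and heterochromatin. The groups were hd2b hd2c heat, WT heat, hd2b hd2c normal and WT normal, with 3 libraries each. Every group was grown at 22 °C on agar with sucrose under a long-day photoperiod, and the heat groups were then held at 44 °C for 3 h. The normal libraries are labelled 0 h, so heat and the time that passed cannot be told apart. Which alleles the hd2b hd2c plants carry is not given in the sources used here.

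The proteasome is the protease that degrades ubiquitin-tagged proteins in the cytosol and nucleus. Its barrel-shaped core is a stack of rings in which alpha subunits gate the entry and beta subunits carry the protease sites. A regulatory particle caps the barrel, with a ring of RPT ATPases that unfold substrates and RPN subunits that bind, position or deubiquitinate them. In Arabidopsis most subunits are encoded by paralogue pairs, and the NAC053 and NAC078 transcription factors are known to raise subunit transcripts when proteasome activity is limiting.

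The libraries held 7737285 to 24030931 counts. The library hd2b hd2c heat 2 stood apart: it was the smallest, had 11.2% of its counts on ribosomal RNA (0.734% to 5.02% in the other 11) and had a mean Spearman correlation of 0.961 with its own group. HD2B had 18.2, 14 and 23.5 CPM (counts scaled to a common library size) in the libraries labelled hd2b hd2c heat, against 86.2, 80.7 and 90.6 CPM in WT heat. It had 21.7, 22.8 and 26.9 CPM in those labelled hd2b hd2c normal, against 40.3, 42.9 and 36.9 CPM in WT normal, so it was present and called lower at both temperatures (−2.15 after heat and −0.75 at normal temperature, edgeR). HD2C had 294, 354 and 326 CPM in the libraries labelled hd2b hd2c heat, against 152, 143 and 151 CPM in WT heat. It had 106, 94.2 and 94 CPM in those labelled hd2b hd2c normal, against 39.8, 37 and 35 CPM in WT normal, so it was called higher (1.12 after heat and 1.40 at normal temperature, edgeR), which goes against a loss of its transcript. A transcript count does not show which part of a gene is altered, so hd2b hd2c below means libraries with that label. Green shoot markers had counts in every library. The root marker PYK10 did too, but 3 of the 5 root markers (BGLU22, EXT17 and AT5G66815) had 0 counts in hd2b hd2c heat 2. Seed storage markers summed to at most 3.86 CPM, as a seedling label implies. After heat the summed green marker level was 52291 to 140540 CPM in hd2b hd2c and 82099 to 114631 CPM in WT, against 9161 to 12348 CPM in hd2b hd2c normal and 10585 to 11592 CPM in WT normal. All 5 green markers were called higher in both genotypes, against 29.9% of all genes in hd2b hd2c and 31% in WT. With library totals 3 green markers were higher and 1 lower in hd2b hd2c, and 4 were higher in WT. Of 5 root markers 4 were called lower in hd2b hd2c, where 31.5% of all genes were, and 5 in WT, where 34.8% were. The part of these markers' tissues in the changes of the subunits was not tested. In whole seedlings a change in the share of a cell type and a change of RNA per cell cannot be told apart. The labels do not say whether replicates were grown separately, so the spread behind each p-value may be technical.

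Upstream sequences were examined because the proteasome-related element bound by NAC053 and NAC078 has TGGGC as its core, letters that also occur in the site II elements of many housekeeping promoters. In a window of 250 bases before to 50 bases after each gene's 5′ end, TGGGC on either strand occurred in 29 of 48 members (60.4%), against 26% of 27438 gene promoters of the same length. At least 2 matches, counted separately where they overlap, occurred in 22 members, against 14.5% of all promoters. The heat shock element letters GAANNTTC occurred in 5 members (10.4%), against 11.6% of all promoters, and the telo box letters AAACCCTA in 3 members (6.25%), against 6.22%. By family TGGGC occurred in 6 of 12 alpha, 9 of 11 beta, 6 of 11 RPT and 8 of 14 RPN promoters. A match is a run of letters and not a measured binding site. The 250 bases before the gene start are shown for 8 members with large heat values or diverging paralogues, 5′ to 3′ on the gene's strand, from the TAIR10.1 genome in RefSeq. Capitals mark TGGGC, its complement GCCCA, or AAACCCTA.

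RPN6 (chr1:10180052-10180301, +): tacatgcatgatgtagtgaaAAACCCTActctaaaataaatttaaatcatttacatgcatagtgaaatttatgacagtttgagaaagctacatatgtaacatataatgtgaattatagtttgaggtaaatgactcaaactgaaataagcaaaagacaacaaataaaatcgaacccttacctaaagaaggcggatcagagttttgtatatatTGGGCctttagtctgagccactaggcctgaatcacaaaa

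RPN1a (chr2:8858712-8858961, +): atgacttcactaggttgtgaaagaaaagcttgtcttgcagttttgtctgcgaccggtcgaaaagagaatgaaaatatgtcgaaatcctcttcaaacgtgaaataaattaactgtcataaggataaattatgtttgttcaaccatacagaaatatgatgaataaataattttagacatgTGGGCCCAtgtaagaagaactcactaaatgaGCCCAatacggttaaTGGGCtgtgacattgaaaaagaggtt

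PBA1 (chr4:15188494-15188743, +): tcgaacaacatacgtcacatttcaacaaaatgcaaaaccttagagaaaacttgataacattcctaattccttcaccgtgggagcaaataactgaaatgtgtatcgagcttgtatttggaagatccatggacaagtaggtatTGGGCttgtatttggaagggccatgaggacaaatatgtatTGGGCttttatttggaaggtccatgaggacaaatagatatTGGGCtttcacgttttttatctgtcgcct

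RPN10 (chr4:18059599-18059848, -): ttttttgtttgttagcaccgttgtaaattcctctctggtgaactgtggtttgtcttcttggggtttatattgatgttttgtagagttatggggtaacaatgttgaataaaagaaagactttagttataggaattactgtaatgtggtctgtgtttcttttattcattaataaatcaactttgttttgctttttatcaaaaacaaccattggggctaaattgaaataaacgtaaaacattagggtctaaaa

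RPT1a (chr1:20068501-20068750, -): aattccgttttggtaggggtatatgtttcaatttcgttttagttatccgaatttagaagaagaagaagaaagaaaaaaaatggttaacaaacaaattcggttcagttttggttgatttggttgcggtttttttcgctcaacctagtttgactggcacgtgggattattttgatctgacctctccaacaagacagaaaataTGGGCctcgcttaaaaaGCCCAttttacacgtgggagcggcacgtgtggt

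RPT1b (chr1:20079023-20079272, -): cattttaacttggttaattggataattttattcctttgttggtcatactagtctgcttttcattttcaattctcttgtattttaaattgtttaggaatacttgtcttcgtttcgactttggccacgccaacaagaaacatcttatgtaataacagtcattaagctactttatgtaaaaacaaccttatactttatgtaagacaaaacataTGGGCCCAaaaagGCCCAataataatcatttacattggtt

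RPT2a (chr4:14312033-14312282, +): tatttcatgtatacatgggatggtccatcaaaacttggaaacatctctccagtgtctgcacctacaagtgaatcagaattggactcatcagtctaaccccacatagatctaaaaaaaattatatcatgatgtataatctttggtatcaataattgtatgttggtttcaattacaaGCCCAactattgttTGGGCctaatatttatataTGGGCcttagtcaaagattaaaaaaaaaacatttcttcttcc

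RPT2b (chr2:8692317-8692566, +): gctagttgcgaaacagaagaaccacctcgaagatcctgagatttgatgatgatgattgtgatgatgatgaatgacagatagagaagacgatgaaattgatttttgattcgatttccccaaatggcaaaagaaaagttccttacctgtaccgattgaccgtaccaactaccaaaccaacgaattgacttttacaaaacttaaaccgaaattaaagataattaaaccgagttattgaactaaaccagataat

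RPN10, among the members with the largest rise, has no match, and RPT1b, the member that fell, has 3. RPN1a has 4 matches in the bases shown and another after the gene start, and the only match of RPT2b also lies after the gene start. RPT5b and RPN3a, also among the largest rises, are not shown. The TGGGC match of RPT5b lies after the gene start, and that of RPN3a before it. Over all members the median log2 fold change with heat was 1.23 in hd2b hd2c and 1.26 in WT for the 29 members with TGGGC (TMM scale). It was 0.87 in hd2b hd2c and 0.92 in WT for the 19 without. This split was made after the values were seen and carries no test.

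Relative to other genes, heat libraries held more transcript of nearly every member and of every part of the complex. By library totals more members were lower than higher, and the same held over all genes. After TMM scaling (trimmed mean of M values, which sets libraries level on the middle of their genes), 44 of 48 members rose in hd2b hd2c and 45 of 48 in WT. Over all genes tested, 29.9% rose in hd2b hd2c and 31% in WT. RPT1b was the 1 member that fell, in both genotypes, where 31.5% of all genes fell in hd2b hd2c and 34.8% in WT. In either direction 45 members were called in hd2b hd2c, where 61.5% of all genes were, and 46 in WT, where 65.8% were. The median log2 fold change of the members was 1.1 in hd2b hd2c and 1.18 in WT, against −0.12 in hd2b hd2c and −0.14 in WT over all genes. At least 2-fold rises were seen in 30 members in hd2b hd2c and 32 in WT, of which 30 were shared. The share of all genes that rose at least 2-fold was not counted. In hd2b hd2c 44 members lay above their normal libraries in all 3 heat libraries, as did 45 in WT, and RPT1b lay below in both. Nor was the share of all genes without overlap counted.

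This direction is relative to other genes. Summed over the 48 members, TMM-scaled levels were 5302 ± 410 CPM in hd2b hd2c heat and 5255 ± 282 CPM in WT heat, against 2090 ± 64.3 CPM in hd2b hd2c normal and 1983 ± 54.8 CPM in WT normal (SD, n = 3). As a share of all counts the members took 0.323% ± 0.0685 in hd2b hd2c heat and 0.303% ± 0.0129 in WT heat, against 0.362% ± 0.0343 in hd2b hd2c normal and 0.331% ± 0.00673 in WT normal. The 10 most abundant genes held 16.3% to 34.1% of counts in the heat libraries, against 7.81% to 13.7% in the normal ones. With library totals in place of TMM, 5 members were higher and 21 lower in hd2b hd2c, and 7 were higher and 22 lower in WT. Of all 20232 genes tested, 969 were then higher and 15816 lower in hd2b hd2c, and 1031 higher and 16005 lower in WT. All counts with library totals below stand against that background. The members' median was then −0.36 in hd2b hd2c and −0.35 in WT, and the all-gene median −1.56 in hd2b hd2c and −1.67 in WT. Of all genes called, 5.77% were higher in hd2b hd2c and 6.05% in WT with totals, and with TMM 48.7% in hd2b hd2c and 47.1% in WT. With upper-quartile factors 36.5% of calls were higher in hd2b hd2c and 36.8% in WT. The distance of the members' median from that of all genes was 1.22 in hd2b hd2c and 1.32 in WT with TMM, and 1.2 in hd2b hd2c and 1.32 in WT with totals. Every rise and fall below is on the TMM scale. RPN6, RPT5b, RPN3a, RPN10 and RPN1a were called higher and RPT1b lower in both genotypes on either scale.

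**Figure D1:**
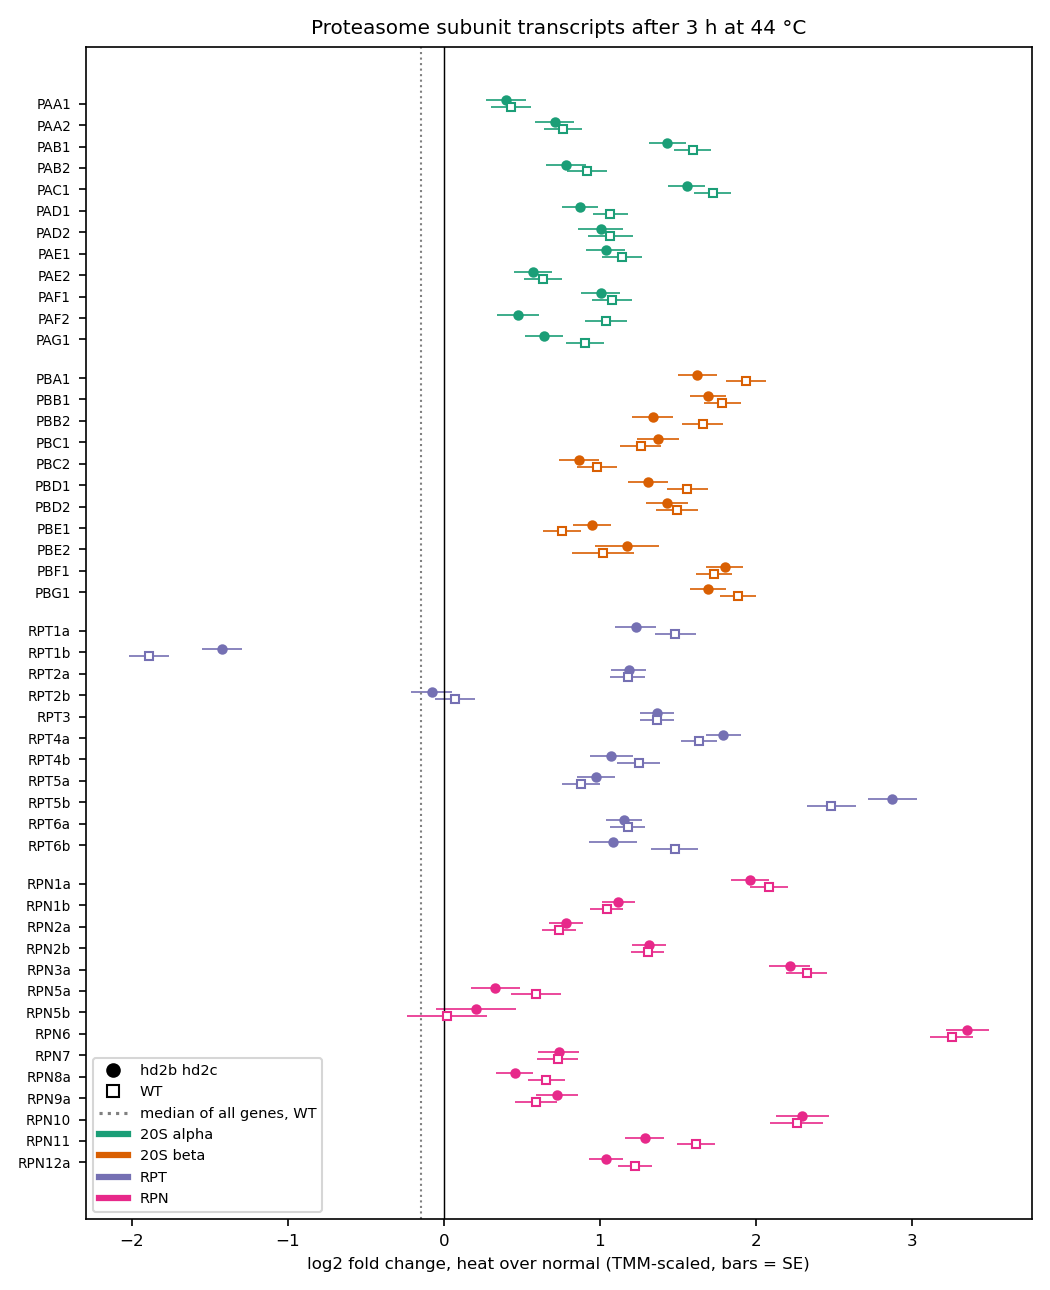
Log2 fold change with heat (x axis, TMM-scaled, bars are SE) of each of the 48 members, in hd2b hd2c (filled circles) above WT (open squares), grouped by part. Nearly all points lie right of 0 and of the dotted all-gene median, RPT1b lies left, and RPN6 lies farthest right; with library totals every point moves left and the members' medians become −0.36 (hd2b hd2c) and −0.35 (WT).

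In the 20S core all 23 genes rose in both genotypes. The 12 alpha genes, which form the outer rings and the gate, had a median of 0.83 in hd2b hd2c and 1.05 in WT, with single genes from 0.40 to 1.56 in hd2b hd2c and 0.43 to 1.72 in WT. With library totals 0 alpha genes were higher and 9 were lower in each genotype. PAC1, the alpha3 subunit, had the largest change and the highest level per length of the alpha genes. PAC1 had 182, 239 and 180.1 CPM in hd2b hd2c heat, against 68.9, 65.8 and 68.6 CPM in hd2b hd2c normal. The WT heat libraries held 216, 222 and 219 CPM, against 67.1, 64.1 and 67.6 CPM in WT normal. All 6 heat libraries lay above all 6 normal ones. Its log2 fold change was 1.56 (SE 0.119, adjusted p 1.04e-10, edgeR) in hd2b hd2c and 1.72 (SE 0.119, adjusted p 1.57e-11, edgeR) in WT. Per kb of coding length PAC1 stood at 88 ± 2.51 CPM in WT normal. PAF1, one of the alpha6 paralogues, lay within the spread of that level, at 86.1 ± 8.63 CPM. Its paralogue PAF2 had the lowest level of the alpha genes, 15 ± 0.415 CPM.

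PAF2 had 19.1, 19.2 and 21.9 CPM in hd2b hd2c heat, against 14, 14.4 and 15.2 CPM in hd2b hd2c normal. In WT it had 24.5, 25.9 and 26.6 CPM after heat, against 12.8, 12.6 and 12.1 CPM at normal temperature. The rise was 0.47 (SE 0.135, adjusted p 0.00421, edgeR) in hd2b hd2c and 1.04 (SE 0.133, adjusted p 3.99e-07, edgeR) in WT. The difference between these changes, −0.56 (adjusted p 0.289, edgeR), did not pass the test, although all 3 hd2b hd2c heat libraries lay below all 3 WT heat libraries. PAF2 is also the member most exposed to another gene, since 1652 of its 2084 bases are overlapped by a gene on the opposite strand. Whether the counting used strand is not given in the sources used here, so reads of these genes cannot be told apart. In all, 17 members overlap another gene, 15 of them on the opposite strand, over 398 bases for PBD1, 320 for RPT1a and 288 for RPN5a. RPN7 is overlapped over 762 bases on the same strand, where strand would not separate the reads, and over 436 on the opposite one. The PAF2 call in hd2b hd2c was lost without hd2b hd2c heat 3, and that of PAA1, the smallest alpha rise, without hd2b hd2c normal 1.

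The 11 beta genes, which line the proteolytic chamber, had a median of 1.37 in hd2b hd2c and 1.56 in WT, with single genes from 0.87 to 1.80 in hd2b hd2c and 0.76 to 1.94 in WT. With library totals 0 were higher and 2 lower in hd2b hd2c, and 2 were higher and 3 lower in WT. Without the library that stood apart the beta median in hd2b hd2c was 1.21, and the alpha median 0.82. PBA1, the beta1 subunit with the caspase-like site, had the highest level per length. In WT normal PBA1 stood at 93.2 ± 8.32 CPM per kb, with PBG1 close at 87.5 ± 4.37 CPM per kb. PBA1 had 232, 274 and 209 CPM in hd2b hd2c heat, against 74.6, 74.2 and 82.1 CPM in hd2b hd2c normal. WT heat gave 229.5, 247 and 278 CPM, against 59.9, 65.6 and 71.6 CPM in WT normal. It rose by 1.63 (SE 0.126, adjusted p 1.32e-10, edgeR) in hd2b hd2c and 1.94 (SE 0.127, adjusted p 6.39e-12, edgeR) in WT, with no overlap between heat and normal libraries. PBB1, a beta2 gene for the trypsin-like site, rose by 1.69 in hd2b hd2c and 1.79 in WT. The single-copy PBF1 (beta6) and PBG1 (beta7) rose by 1.80 and 1.69 in hd2b hd2c, and in WT PBF1 rose by 1.73 and PBG1 by 1.88.

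The smallest beta values were those of PBC2, a beta3 gene, and of the beta5 genes PBE1 and PBE2, for the chymotrypsin-like site. PBC2 rose by 0.87 in hd2b hd2c and 0.98 in WT. PBE1 rose by 0.95 in hd2b hd2c and 0.76 in WT. PBE2 had the lowest level per length of the beta genes. PBE2 had 18.5, 38.1 and 19.3 CPM in hd2b hd2c heat, against 11, 8.88 and 11.6 CPM in hd2b hd2c normal. Its WT values were 21.7, 21.7 and 25.1 CPM after heat, against 11.9, 11.2 and 10.6 CPM at normal temperature. Its rise of 1.17 (SE 0.204, adjusted p 2.94e-05, edgeR) in hd2b hd2c and 1.02 (SE 0.198, adjusted p 9.9e-05, edgeR) in WT had a wide spread in hd2b hd2c heat, where the library that stood apart had the highest value and the other two lay close together.

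**Figure D2:**
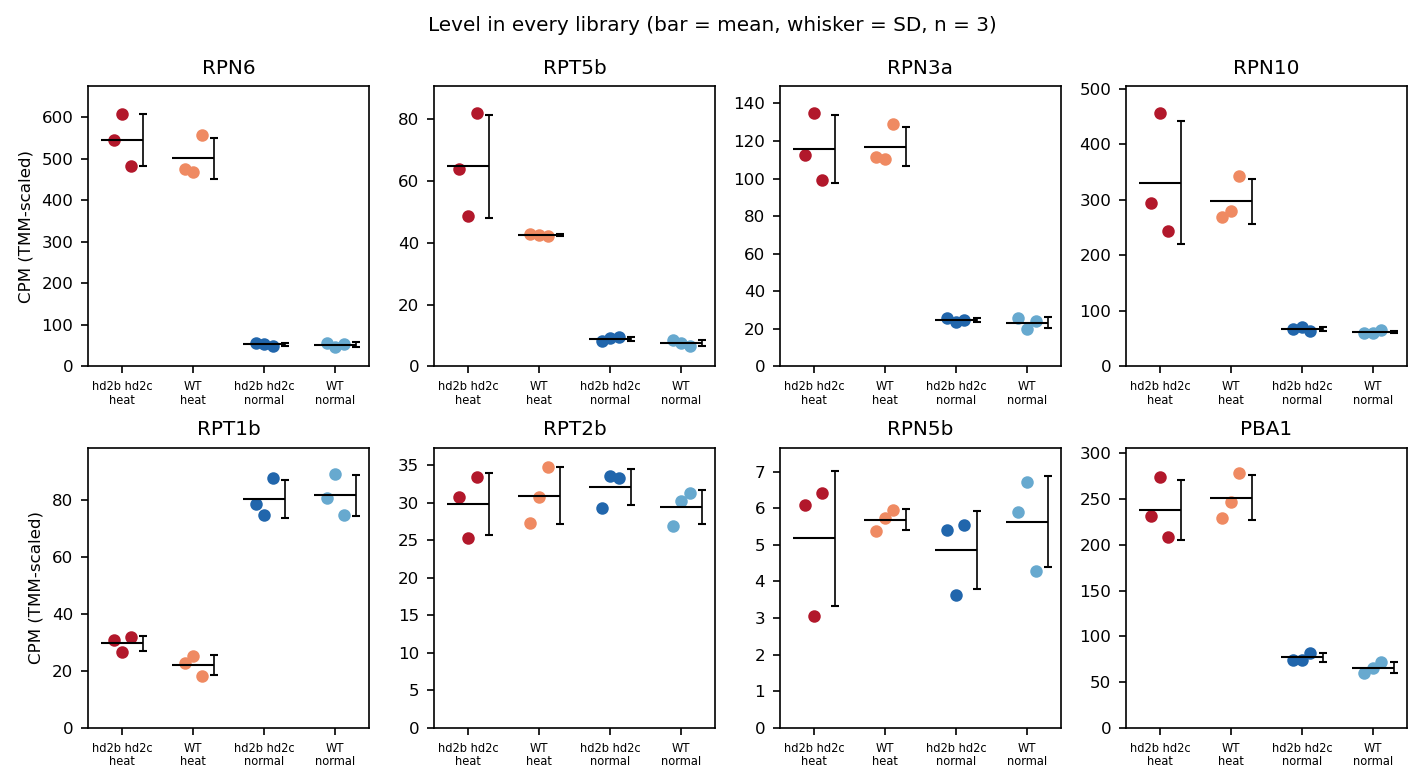
TMM-scaled CPM (y axis, from 0) of 8 members in each library, with hd2b hd2c heat, WT heat, hd2b hd2c normal and WT normal from left to right; points are libraries, bars means and whiskers SD (n = 3). RPN6, RPT5b, RPN3a, RPN10 and PBA1 are higher after heat with no overlap, RPT1b is lower, and RPT2b and RPN5b overlap; scaled by library totals, RPT2b and RPN5b were called lower, and PBA1 was called higher in WT but not in hd2b hd2c.

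The RPT ATPases diverged most. Of 11 RPT genes 9 rose, RPT1b fell and RPT2b was not called, in each genotype, and the median was 1.16 in hd2b hd2c and 1.25 in WT. With library totals 1 was higher and 3 were lower in each genotype. RPT5b (AT1G09100, chromosome 1, 2936528 to 2939363, minus strand) had the largest rise. RPT5b had 63.7, 48.5 and 81.8 CPM in hd2b hd2c heat, against 8.17, 9.23 and 9.5 CPM in hd2b hd2c normal. In WT it had 42.7, 42.6 and 42 CPM after heat, against 8.41, 7.51 and 6.76 CPM at normal temperature. That was 2.87 (SE 0.156, adjusted p 2.52e-13, edgeR) in hd2b hd2c and 2.48 (SE 0.157, adjusted p 3.53e-12, edgeR) in WT, or 7.33-fold in hd2b hd2c and 5.59-fold in WT. The heat and normal libraries did not overlap. At normal temperature RPT5b had the lowest level per length of the RPT genes, 5.94 ± 0.65 CPM per kb in WT, where RPT3 had the highest, 51.3 ± 4.42 CPM per kb. RPT1a lay within the spread of RPT3, at 49.6 ± 1.66 CPM per kb in WT normal.

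RPT3, a single-copy ATPase gene, lay near the family's median. RPT3 had 158, 171 and 158 CPM in hd2b hd2c heat, against 59.2, 62.5 and 66.7 CPM in hd2b hd2c normal. The WT heat libraries held 159, 161 and 168 CPM, against 68.9, 58.3 and 61.7 CPM in WT normal. Its change was 1.37 (SE 0.109, adjusted p 2.26e-10, edgeR) in hd2b hd2c and 1.37 (SE 0.109, adjusted p 1.78e-10, edgeR) in WT, and the 6 heat libraries spanned a narrow range well above the 6 normal ones.

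RPT1b (AT1G53780, chromosome 1, 20073989 to 20079022, minus strand) moved the other way. RPT1b had 30.7, 26.5 and 31.8 CPM in hd2b hd2c heat, against 78.8, 74.9 and 87.7 CPM in hd2b hd2c normal. WT heat gave 22.7, 25.2 and 18.2 CPM, against 80.7, 89.4 and 74.9 CPM in WT normal. It fell by 1.42 on the log2 scale in hd2b hd2c (SE 0.128, adjusted p 1.81e-09, edgeR) and by 1.89 in WT (SE 0.129, adjusted p 1.36e-11, edgeR). All 6 heat libraries lay below all 6 normal ones. Its annotated coding sequence, 1797 to 1863 bp over 4 isoforms, is longer than the 1281 bp of RPT1a, and no annotated gene overlaps it. RPT2b stayed between 25.3 and 34.8 CPM in all 12 libraries, with changes of −0.08 (adjusted p 0.628, edgeR) in hd2b hd2c and 0.07 (adjusted p 0.633, edgeR) in WT, and its heat and normal libraries overlapped.

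Among the RPN genes 12 of 14 rose in hd2b hd2c and 13 of 14 in WT, with medians of 1.08 in hd2b hd2c and 1.13 in WT, and 0 fell. With library totals 4 were higher and 7 lower in each genotype. RPN6 (AT1G29150, chromosome 1, 10180302 to 10182808, plus strand) encodes a lid subunit that clamps the regulatory particle to the core, and had the largest rise of the 48. RPN6 had 546, 608 and 482 CPM in hd2b hd2c heat, against 56.3, 53.8 and 49.7 CPM in hd2b hd2c normal. Its WT values were 476, 468 and 558 CPM after heat, against 56.9, 46 and 54.1 CPM at normal temperature. That was 3.36 (SE 0.139, adjusted p 1.46e-15, edgeR) in hd2b hd2c and 3.26 (SE 0.138, adjusted p 2.3e-15, edgeR) in WT, or 10.2-fold in hd2b hd2c and 9.55-fold in WT. The lowest heat library was several times the highest normal one. With library totals the log2 fold change of RPN6 was 1.85 in hd2b hd2c and 1.72 in WT.

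RPN3a (AT1G20200, chromosome 1, 7001087 to 7004432, minus strand), another lid subunit, also rose more than 4-fold in both genotypes. RPN3a had 112, 135 and 99.3 CPM in hd2b hd2c heat, against 25.7, 23.6 and 24.7 CPM in hd2b hd2c normal. In WT it had 112, 110.4 and 129 CPM after heat, against 25.6, 20.01 and 24.2 CPM at normal temperature. The change was 2.22 (SE 0.13, adjusted p 1.07e-12, edgeR) in hd2b hd2c and 2.33 (SE 0.13, adjusted p 4.21e-13, edgeR) in WT, and the groups did not overlap. Other lid genes had smaller values. The 9 lid genes had a median of 0.74 in hd2b hd2c and 0.73 in WT, with 7 called higher in hd2b hd2c and 8 in WT. RPN11, the deubiquitinase of the lid, rose by 1.29 in hd2b hd2c and 1.62 in WT. RPN7, RPN8a and RPN9a rose by 0.74, 0.45 and 0.72 in hd2b hd2c and by 0.73, 0.66 and 0.59 in WT.

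RPN8a, the partner of RPN11, had the highest level per length of the RPN genes in WT normal, 63.2 ± 6.04 CPM per kb. RPN11 lay close to it, at 57.1 ± 0.498 CPM per kb, and RPN5b was the lowest, at 4.24 ± 0.93 CPM per kb. RPN8a had 95.9, 73.8 and 96.6 CPM in hd2b hd2c heat, against 64.1, 68.9 and 63.2 CPM in hd2b hd2c normal. The WT heat libraries held 85.7, 92 and 99.9 CPM, against 54.9, 56 and 65.1 CPM in WT normal. These groups did not overlap, and RPN8a was called higher in both genotypes (0.00229 in hd2b hd2c and 4.35e-05 in WT, edgeR adjusted p). RPN5b stayed between 3.05 and 6.71 CPM in all 12 libraries, with changes of 0.21 (adjusted p 0.497, edgeR) in hd2b hd2c and 0.02 (adjusted p 0.946, edgeR) in WT. RPN5a, its paralogue, rose in WT, by 0.59 (SE 0.159, adjusted p 0.00249, edgeR), and was not called in hd2b hd2c at 0.33 (SE 0.16, adjusted p 0.0764, edgeR). It had 56.5, 32.9 and 64.9 CPM in hd2b hd2c heat, against 40.8, 39.1 and 46.6 CPM in hd2b hd2c normal. The library that stood apart was the low one, and without it RPN5a was called higher in hd2b hd2c too. The difference between the genotypes' changes was −0.26 (adjusted p 0.793, edgeR).

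The RPN subunits of the base, which dock substrates and shuttle proteins, rose in 5 of 5 cases, with a median of 1.31 in both genotypes. RPN10 (AT4G38630, chromosome 4, 18056988 to 18059598, minus strand), a ubiquitin receptor, rose most. RPN10 had 293, 457 and 244 CPM in hd2b hd2c heat, against 67.1, 70.6 and 63.5 CPM in hd2b hd2c normal. WT heat gave 268, 280.1 and 343 CPM, against 60.6, 60.4 and 65 CPM in WT normal. The change was 2.30 (SE 0.17, adjusted p 7.69e-11, edgeR) in hd2b hd2c and 2.26 (SE 0.17, adjusted p 8.4e-11, edgeR) in WT. The highest hd2b hd2c heat value came from the library that stood apart, and without that library the change in hd2b hd2c was 1.99. The scaffold genes RPN2a and RPN2b rose by 0.78 and 1.31 in hd2b hd2c and by 0.74 and 1.31 in WT.

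Pooling paralogues gives 1 level for each of the 31 subunits, in CPM per kb of coding length. In the 6 normal libraries the highest subunit stood 6.80 to 8.43 times above the lowest, and in the 6 heat libraries 12.01 to 18.6 times. The SD of the log2 levels across subunits was 0.811 to 1.08 in the heat libraries, against 0.689 to 0.772 in the normal ones, with the highest value in the library that stood apart and 0.912 as the next. These ratios lie within a library and do not depend on its scaling. They do depend on the copies left out, since RPN3 was mostly the lowest subunit in normal libraries and RPN9 in heat libraries. Ratios with those copies were not computed. RPN6 was the highest subunit in all 6 heat libraries and in 0 of the normal ones, where alpha1, alpha4 or beta3 led. RPN6 reached 433 ± 50.4 CPM per kb in hd2b hd2c heat and 397 ± 39.7 in WT heat, against 42.3 ± 2.64 in hd2b hd2c normal and 41.5 ± 4.47 in WT normal (SD, n = 3). The lowest subunit in 5 of the 6 heat libraries was RPN9, counted from RPN9a alone. RPN9a had a mean of 29.8 CPM per kb in hd2b hd2c heat and 26.1 in WT heat. The left-out RPN9b had 33 in hd2b hd2c heat and 32.9 in WT heat, so RPN9 with both copies would not stand this low. By part, the median pooled beta level was 257 CPM per kb in hd2b hd2c heat and 253 in WT heat, against 87.9 in hd2b hd2c normal and 87.5 in WT normal. The median alpha level was 173 in hd2b hd2c heat and 177 in WT heat, against 90.01 in hd2b hd2c normal and 87.99 in WT normal. Alpha and beta subunits had nearly equal medians at normal temperature and higher beta medians after heat.

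**Figure D3:**
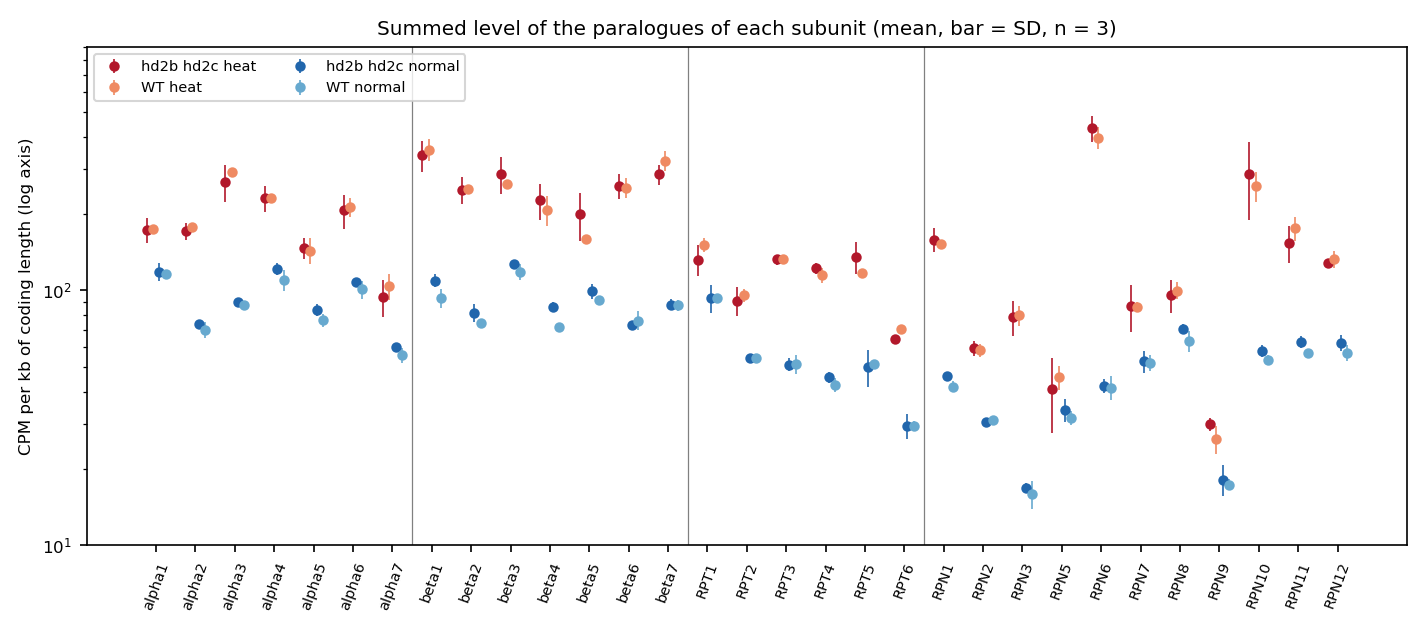
TMM-scaled CPM per kb of coding length (y axis, log scale) summed over the paralogues of each of 31 subunits, by part along the x axis; points are group means in the order hd2b hd2c heat, WT heat, hd2b hd2c normal and WT normal, and bars SD (n = 3). Heat means lie above normal means throughout on the TMM scale (library totals lower every heat mean relative to normal). RPN6 is the highest after heat, and RPN9, counted from RPN9a alone, the lowest.

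Whether heat changed which paralogue supplied a subunit was tested for the 17 pairs, from the ratio of their counts within a library, which no scaling affects. By an exact two-sided permutation test within genotype (400 arrangements, smallest p 0.005), adjusted over the 17 pairs, the ratio differed with heat in 8 pairs. The paralogues share 80.7% to 94.4% of aligned coding bases, and no shared run was longer than 104 bp, so reads in such runs may be split between copies.

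Among the 17 pairs tested, the largest shift was in RPT1. RPT1a supplied 83.9, 82.4 and 83.6% of the pair's counts in hd2b hd2c heat, against 44.8, 41.5 and 45.9% in hd2b hd2c normal. In WT it supplied 88.1, 88.3 and 90.6% after heat, against 43.7, 41 and 46.8% at normal temperature. The log2 ratio rose by 3.02 (adjusted p 0.0121, exact permutation test), and RPT1a held the smaller share of the counts in all 6 normal libraries and the larger in all 6 heat libraries. Per kb of coding length RPT1a stood at 139 ± 8.42 CPM and RPT1b at 11.8 ± 1.9 CPM in WT heat, against 49.6 ± 1.66 CPM for RPT1a and 43.8 ± 3.9 CPM for RPT1b in WT normal. RPT1a itself had 160.1, 124 and 162 CPM in hd2b hd2c heat, against 63.9, 53.1 and 74.4 CPM in hd2b hd2c normal. It had 169, 189.6 and 175 CPM in WT heat, against 62.5, 62 and 65.9 CPM in WT normal, all above.

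RPT5 shifted towards its scarcer copy. RPT5a supplied 63.8, 66.7 and 58.1% of the pair's counts in hd2b hd2c heat, against 86.1, 83.8 and 87.5% in hd2b hd2c normal. In WT it supplied 71.8, 70.9 and 72.1% after heat, against 87.7, 88.5 and 89.4% at normal temperature. The log2 ratio of RPT5a to RPT5b fell by 1.73 (adjusted p 0.0121, exact permutation test), with no overlap in either genotype. RPT5a held the larger share of the counts in all 12 libraries. It had 112, 97.2 and 113 CPM in hd2b hd2c heat, against 50.4, 47.8 and 66.7 CPM in hd2b hd2c normal, and rose by 0.97. It had 109, 103 and 109 CPM in WT heat, against 59.9, 57.9 and 57 CPM in WT normal, and rose by 0.88.

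In RPT2 the copy called higher was RPT2a. RPT2a, known for its part in root meristem size, had 97.5, 78 and 99 CPM in hd2b hd2c heat, against 40.5, 39.6 and 41.5 CPM in hd2b hd2c normal. It had 91.6, 102 and 96.3 CPM in WT heat, against 45.3, 39.96 and 42.5 CPM in WT normal. RPT2a rose by 1.19 in hd2b hd2c and 1.18 in WT, beside RPT2b, which was not called and had 30.7, 25.3 and 33.4 CPM in hd2b hd2c heat and 27.3, 30.8 and 34.8 CPM in WT heat. RPT2b had 29.3, 33.6 and 33.3 CPM in hd2b hd2c normal and 26.9, 30.2 and 31.3 CPM in WT normal. The log2 ratio rose by 1.19 (adjusted p 0.0121, exact permutation test).

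RPN1, the docking subunit for shuttle receptors, leaned further on RPN1a. RPN1a had 365, 390.5 and 296 CPM in hd2b hd2c heat, against 91.1, 89.1 and 89.2 CPM in hd2b hd2c normal. Its WT values were 329, 345 and 361 CPM after heat, against 81.6, 77.7 and 84.8 CPM at normal temperature. RPN1a rose by 1.96 in hd2b hd2c and 2.08 in WT. RPN1b had 74, 68.9 and 75.6 CPM in hd2b hd2c heat, against 33.6, 33 and 34.5 CPM in hd2b hd2c normal. It had 63.8, 67.1 and 60.1 CPM in WT heat, against 31.7, 28.4 and 32.3 CPM in WT normal. Both copies rose without overlap, and the ratio of RPN1a to RPN1b rose by 0.94 on the log2 scale (adjusted p 0.0121, exact permutation test).

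PAB1 and PAB2, the alpha2 genes, shifted towards PAB1. PAB1 had 77.4, 102 and 74.5 CPM in hd2b hd2c heat, against 31.8, 29.3 and 31.9 CPM in hd2b hd2c normal. In WT it had 85.4, 84.1 and 85.1 CPM after heat, against 27.9, 26.6 and 29.7 CPM at normal temperature. PAB1 lay higher after heat in every library, and highest in the library that stood apart. PAB2 had 39.5, 29 and 39.6 CPM in hd2b hd2c heat, against 19.9, 21.8 and 22.4 CPM in hd2b hd2c normal. It had 40.8, 40.1 and 41.5 CPM in WT heat, against 20.2, 20.5 and 24.1 CPM in WT normal. The log2 ratio rose by 0.69 (adjusted p 0.0121, exact permutation test), or by 0.54 without the library that stood apart. The other 3 pairs were RPT4a over RPT4b at 0.57 (adjusted p 0.0213), PAE1 over PAE2 at 0.48 and RPN2a over RPN2b at −0.56 (adjusted p 0.0121 each, exact permutation test). The RPT4 ratios of WT heat and WT normal overlapped. In 9 pairs the ratio was not called different, with the smallest adjusted p at 0.0638, and the same 8 pairs were called without the library that stood apart.

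**Figure D4:**
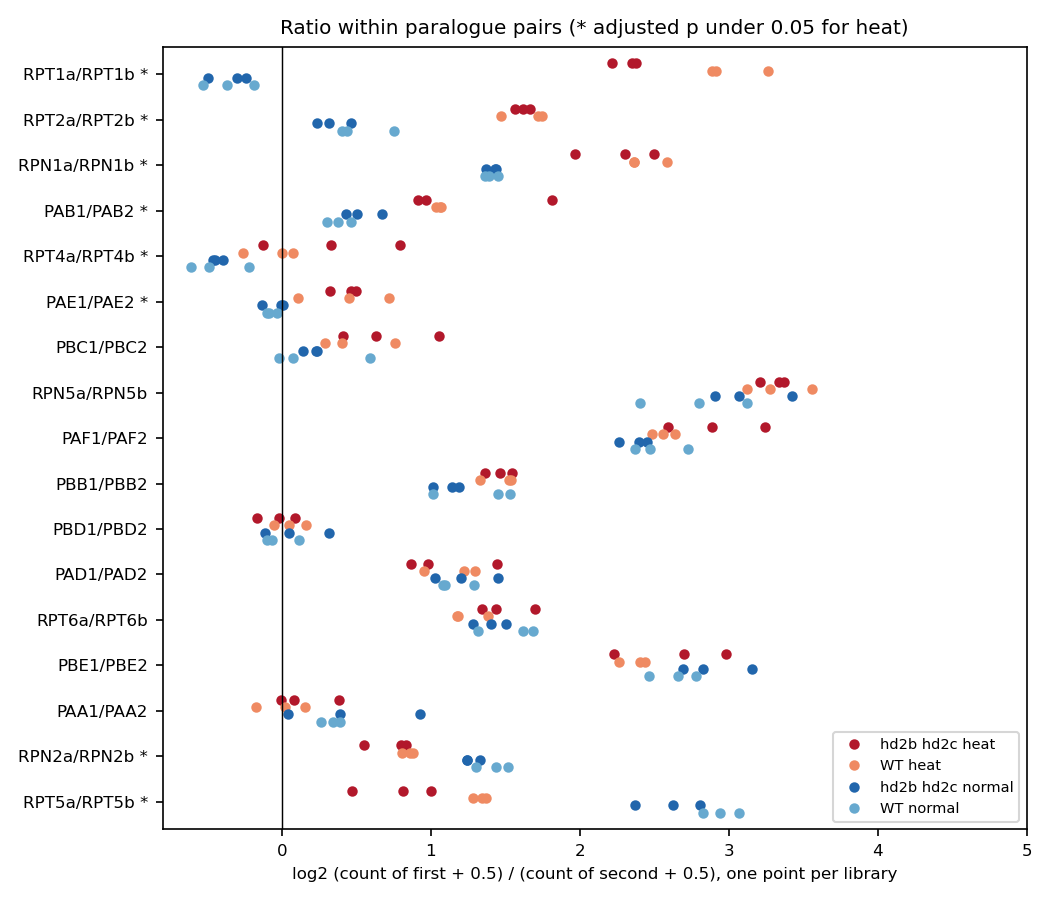
Log2 ratio of the counts of the first to the second paralogue (x axis, 0.5 added to each) in each library for the 17 pairs; within a pair the rows from the top are hd2b hd2c heat, WT heat, hd2b hd2c normal and WT normal, and stars mark the 8 pairs whose ratio differed with heat. The RPT1 heat points lie right of 0 and the normal points left of it, and the RPT5 heat points lie left of the normal ones.

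Calls between genotypes were about as rare among the members as among all genes. At normal temperature 0 of 48 members were called in hd2b hd2c relative to WT, where 2.65% of all genes were (0.979% higher, 1.67% lower). By unadjusted p under 0.05, 2 members passed with edgeR and 1 with DESeq2, which also called 0 after adjustment. The share of all genes passing unadjusted was not counted. PBD1, a beta4 gene, was nearest with 0.32 (SE 0.127, adjusted p 0.234, edgeR). The members' median was 0.1, against 0 over all genes, and 37 of 48 values were positive. After heat 1 member was called, where 2.76% of all genes were (1.59% higher, 1.18% lower), and the members' median was −0.01.

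The called gene was RPT5b, with 63.7, 48.5 and 81.8 CPM in hd2b hd2c heat, against 42.7, 42.6 and 42 CPM in WT heat. Its log2 fold change was 0.63 (SE 0.146, adjusted p 0.021, edgeR), and the groups did not overlap. The call was lost without any 1 WT heat library, without hd2b hd2c heat 1 and without hd2b hd2c heat 3, where the log2 fold change was 0.40 (adjusted p 0.196, edgeR). It was also lost with library totals (adjusted p 0.282, edgeR). Without the library that stood apart it was 0.79 (adjusted p 0.000242, edgeR). RPT1b was 0.45 (SE 0.133, adjusted p 0.0711, edgeR), above WT heat in all 3 libraries, and was called without the library that stood apart (0.51, adjusted p 0.0152, edgeR) and by DESeq2 (0.45, adjusted p 0.0450).

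The genotype by heat interaction, which asks whether the heat change itself differed, was called for 0 of 48 members, where 0.336% of all genes were called (0.148% higher, 0.188% lower). By unadjusted p under 0.05, 2 members passed with edgeR and 2 with DESeq2, which also called 0 after adjustment. Here too the share of all genes passing unadjusted was not counted. The smallest adjusted p was that of PAF2, 0.289. For RPT5b the interaction was 0.39 (SE 0.214, adjusted p 0.631, edgeR) and for RPT1b 0.47 (SE 0.179, adjusted p 0.391, edgeR). Of the 17 pair ratios 0 differed with genotype after adjustment. RPT5a over RPT5b came nearest, at −0.46 in hd2b hd2c relative to WT (p 0.005, adjusted p 0.085, exact permutation test), with the hd2b hd2c libraries below the WT ones at both temperatures. A miss of the threshold with 3 libraries a group does not show that the genotypes are alike.

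Of the transcription factors that act on subunit genes, NAC078 rose and NAC053 was not called. NAC078 had 299.7, 206 and 299.6 CPM in hd2b hd2c heat, against 45.6, 44.3 and 42 CPM in hd2b hd2c normal. The WT heat libraries held 200.1, 201 and 191 CPM, against 39.99, 41.1 and 45.4 CPM in WT normal. NAC078 rose by 2.62 (SE 0.135, adjusted p 9.35e-14, edgeR) in hd2b hd2c and 2.23 (SE 0.133, adjusted p 1.31e-12, edgeR) in WT, and with library totals by 1.18 in hd2b hd2c and 0.71 in WT. All heat libraries lay far above all normal ones. NAC053 had 22.5, 16.5 and 28.3 CPM in hd2b hd2c heat, against 15.7, 16.1 and 21.8 CPM in hd2b hd2c normal, a change of 0.38 (SE 0.171, adjusted p 0.061, edgeR). It had 20.9, 24.6 and 19.5 CPM in WT heat, against 16.7, 18.6 and 19.99 CPM in WT normal, a change of 0.24 (SE 0.17, adjusted p 0.23, edgeR). The NAC053 groups overlapped in both genotypes. Without the library that stood apart NAC053 was called higher in hd2b hd2c (0.49, adjusted p 0.00791, edgeR), and with library totals it was called lower in both (−1.07 in hd2b hd2c and −1.28 in WT).

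Partners of the proteasome were counted from lists of known genes. Of 8 subunit genes and paralogues outside the 48, 3 rose and 1 fell in each genotype, near the shares of all genes that rose (29.9% in hd2b hd2c and 31% in WT), and with library totals 0 were higher and 6 lower in each. RPN13, a ubiquitin receptor, rose by 1.34 in hd2b hd2c and 1.29 in WT. Of the second copies in that list, RPN9b rose by 0.95 in hd2b hd2c and 0.98 in WT. RPN3b rose by 1.03 in hd2b hd2c and 1.36 in WT. RPN8b and RPN12b were not called in either genotype. PAC2, the paralogue of PAC1, fell in both genotypes, from few reads: it had 7, 4 and 3 counts in hd2b hd2c heat, against 60, 71 and 90 counts in hd2b hd2c normal. It had 1, 4 and 10 counts in WT heat, against 98, 41 and 71 counts in WT normal. Assembly and associated factors rose in 7 of 8 tested cases in hd2b hd2c and 6 of 8 in WT, and 1 fell in each (with library totals 0 higher and 4 lower in hd2b hd2c, and 0 higher and 3 lower in WT). PTRE1, a proteasome regulator related to PI31, rose by 1.66 in hd2b hd2c and 1.66 in WT. The deubiquitinase UBP6 rose by 1.45 in hd2b hd2c and 1.54 in WT, and the maturation factor UMP1A by 0.89 in hd2b hd2c and 1.35 in WT.

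Of all genes tested, 29.9% rose and 31.5% fell in hd2b hd2c, and 31% rose and 34.8% fell in WT. Among genes that deliver substrates, shuttle receptors rose in 7 of 7 cases in hd2b hd2c and 6 of 7 in WT. With library totals 1 shuttle receptor was higher and 1 lower in hd2b hd2c, and 1 was higher and 2 lower in WT. DDI1 rose by 2.07 in hd2b hd2c and 2.07 in WT, DSK2A by 1.63 in hd2b hd2c and 1.61 in WT and RAD23D by 1.59 in hd2b hd2c and 1.57 in WT. In the CDC48 system, which extracts ubiquitinated proteins, 6 of 7 rose and 1 fell in each genotype, and with library totals 3 were higher and 3 lower in each. CDC48B had the largest rise of that list, 4.39 (SE 0.135, adjusted p 4.56e-18, edgeR) in hd2b hd2c and 3.83 (SE 0.133, adjusted p 4.42e-17, edgeR) in WT. CDC48C rose by 3.49 in hd2b hd2c and 3.42 in WT, and CDC48A by 2.48 in hd2b hd2c and 2.30 in WT. PUX1, which takes CDC48 hexamers apart, fell by 1.07 in hd2b hd2c and 0.64 in WT. All 7 polyubiquitin and ubiquitin-activating (E1) genes rose in both genotypes, and with library totals 4 were higher and 1 lower in each. UBQ14 rose by 3.49 in hd2b hd2c and 3.53 in WT, UBQ10 by 3.44 in hd2b hd2c and 3.46 in WT and UBQ4 by 1.72 in hd2b hd2c and 1.68 in WT. The polyubiquitin genes carry near-identical repeats, so their counts are uncertain.

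The COP9 signalosome is a relative of the lid that removes NEDD8 from cullins. Of its 10 genes 6 rose in hd2b hd2c, where 29.9% of all genes did, and 8 in WT, where 31% did. CSN2 fell in both genotypes, where 31.5% of all genes fell in hd2b hd2c and 34.8% in WT. With library totals 1 signalosome gene was higher and 6 were lower in each. CSN7 rose by 3.19 in hd2b hd2c and 2.91 in WT, CSN5A, which carries the catalytic site, by 1.54 in hd2b hd2c and 1.89 in WT, and CSN3 by 1.11 in hd2b hd2c and 1.38 in WT. Between the genotypes, where 2.76% of all genes were called after heat, ECM29, a proteasome-binding protein, was called higher in hd2b hd2c after heat, by 0.48 (SE 0.118, adjusted p 0.0288, edgeR), as was RAD23B, by 0.51 (SE 0.129, adjusted p 0.033, edgeR). They were 1 of 8 assembly and associated factors tested and 1 of 7 shuttle receptors, and 0 genes were called in the other partner lists. Whether these calls hold without single libraries was not examined.

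**Figure D5:**
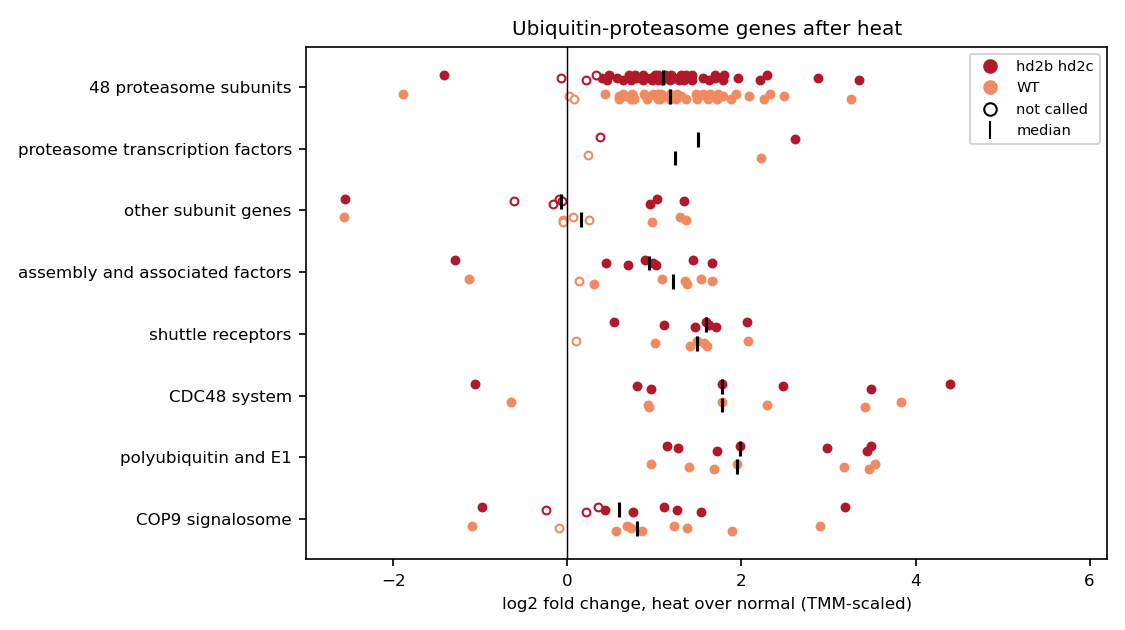
Log2 fold change with heat (x axis, TMM-scaled) of each gene of the lists, in hd2b hd2c above WT; filled points were called, open points were not, and black ticks are medians. The 48 subunits, the shuttle receptors, the CDC48 system and the polyubiquitin genes lie mostly right of 0, and the other subunit genes straddle it; with library totals every list moves left.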

How the data were processed

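RNA was sequenced from 12 seedling libraries. HISAT2 2.1.0, featureCounts 2.0.3 and the TAIR10 build are named in the submitters' processing notes, and the deposited table holds raw counts per gene, not normalised by the authors. How strand and multiply aligned reads were handled is not given in the sources used here. The table gives no coordinates or lengths, so positions, promoters and longest coding lengths come from the TAIR10.1 reference by locus.

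The members, gene lists, upstream motifs and paralogue pairs were chosen with earlier results of these data known. The pooled subunit levels, the motif scan and the overlap checks were added after values were seen.

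Genes with enough counts (edgeR filterByExpr, minimum count 10, minimum total 15) were fitted as 1 model of 4 groups by the robust quasi-likelihood test of edgeR 4.0.16 in R 4.3.3, with TMM factors. P-values were adjusted by Benjamini-Hochberg over all genes tested, and genes with adjusted p under 0.05 were called. Each SE is the size of the log2 fold change over the root of its F statistic. Named members are the 4 largest called changes in each direction per comparison (mean of at least 5 CPM), the members of the 5 paralogue pairs with the largest ratio change with heat and of the 1 with genotype, and the highest and lowest level per length of each part. From other lists, up to 3 called genes by smallest adjusted p in heat in WT are named, with NAC053 and NAC078. Genes named outside this rule (PBB1, PBC2, PBE1, PBF1, PBG1, RPN2a, RPN2b, RPN5a, RPN7, RPN9a, RPN11, PAA1, PBD1, the RPT4 and PAE genes, PUX1, PAC2, CSN2, ECM29 and RAD23B) were chosen after their values were seen. PAF1, RPN8b and RPN12b were added later for comparison. Scripts were tested on simulated data. Sequence comparison used Biopython 1.88 in Python 3.11.15, and DESeq2 1.42.0 was an alternative.

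Replicate numbers are shared between groups, and the labels do not say whether they pair libraries. Deviations of same-numbered libraries correlated at −0.13 to 0.15, and 1 of 18 such correlations was over 0.1. Those of different-numbered libraries correlated at −0.14 to 0.12, and 2 of 36 were over 0.1. With 3 libraries per group these values cannot settle whether libraries were paired, and the main fit left them unpaired. Replicates differed by more than sampling noise. The chi-square per gene was 7.51 to 27.6 in pairs without hd2b hd2c heat 2, and 135 and 141 in the pairs with it. All 12 libraries were kept. Alternatives were other scalings, DESeq2, no filter, a replicate block, and leaving out each library.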

Additional observations from a re-analysis of the deposited data

How the results depend on the processing

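Scaling by library totals set the direction of the heat result: 26 members were called in hd2b hd2c (5 higher, 21 lower, median −0.36) and 29 in WT (7 higher, 22 lower, median −0.35). Over all genes 969 were then higher and 15816 lower in hd2b hd2c, and 1031 higher and 16005 lower in WT. Upper-quartile factors gave medians of 0.84 (2 lower) in hd2b hd2c and 0.93 in WT, DESeq2 1.07 in hd2b hd2c and 1.14 in WT, and no filter on low counts 1.08 in hd2b hd2c. The log2 fold changes of RPN6, RPT5b, RPN3a, RPN10 and RPT1b with heat kept direction and call under every alternative run. Upper-quartile factors lost PAF2, RPN8a and PAA1 in hd2b hd2c and RPN5a and PAA1 in WT. Leaving out 1 library gave 44 to 46 calls in hd2b hd2c (43 to 45 higher, median 1.05 to 1.14) and 46 in WT (median 1.13 to 1.22).

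For genotype at normal temperature, library totals gave a member median of 0.15 and 102 of all genes called, against 536, and leaving out 1 library gave medians of 0.073 to 0.13 and 216 to 1061 genes. For genotype after heat, library totals gave 0 members, a median of 0.089 and 53 genes, against 559, DESeq2 gave 2 members and 948 genes, and no filter gave 2 members and 851 genes. Leaving out 1 library gave 0 to 2 members, medians of −0.033 to 0.018 and 152 to 1435 genes. For the interaction, library totals gave a median of −0.042 and 10 genes, against 68, DESeq2 194 genes and no filter 180, and leaving out 1 library gave medians of −0.14 to −0.029 and 16 to 339 genes. The largest of these counts, 1061, 1435 and 339, came without hd2b hd2c heat 2. The cause was not tested.

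The replicate block gave 340 genes called for genotype after heat, against 559, and kept all 45 heat calls of members in hd2b hd2c and 46 in WT. Pair ratios that differed with heat numbered 8 to 11 when 1 library was left out, and 0 differed with genotype. Values of single genes with library totals or no filter were added after the data were seen. Having 3 libraries per group, of which hd2b hd2c heat 2 held 7737285 counts, limits what can be called between genotypes, and RPN5b, with 3.05 to 6.71 CPM, is measured least precisely.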
